A study of Homo sapiens with 10 samples.

Results

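The miR-200 family comprises 5 hairpins in 2 genomic clusters. On the arrays described here it was represented by 9 mature miRNAs among 2565 miRNA probes, each read as the probe that carries the member's name. The 9 probes were hsa-miR-200a-3p, hsa-miR-200a-5p, hsa-miR-200b-3p, hsa-miR-200b-5p, hsa-miR-200c-3p, hsa-miR-200c-5p, hsa-miR-141-3p, hsa-miR-141-5p and hsa-miR-429, written below without the species prefix. MiR-205, which shares targets with the family but not its sequence, was not counted as a member. The cells were HuH-7, an established human hepatocellular carcinoma line of epithelial appearance, grown in low-glucose DMEM with 10% fetal bovine serum. One group of 5 arrays holds cells given 1 µM lenvatinib, an oral inhibitor of VEGF and FGF receptor tyrosine kinases, for 96 h, and the other group of 5 arrays holds control cells kept for 96 h without it. All cells were of the 1 line. Whether replicate arrays stem from independent cultures is not labelled, so each p-value refers to array-to-array spread, and that spread may be technical. The extraction label names serum while the other labels name the cell line. The title gives the question as which miRNAs go with the antitumour action of the drug, and the arrays measured miRNAs only, so no epithelial protein or mRNA was read.

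The family is best known as a guardian of the epithelial state. Its members repress ZEB1 and ZEB2, transcription factors that silence the E-cadherin gene CDH1, and ZEB1 and ZEB2 in turn silence both miR-200 clusters, so that the 2 sides restrain each other. The seed, bases 2 to 8 counted from the 5′ end, decides most target pairing. The 3p arms are the usual functional strands, and the 5p arms are usually the less abundant partners.

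RefSeq (GRCh38.p14) held the mature sequences of 8 of the 9 members. The 3p arms are shown first because their seeds, in capitals, split the family across the genomic clusters. MiR-200b-3p, miR-200c-3p and miR-429 share 1 seed, and miR-200a-3p and miR-141-3p share another. The seeds of miR-200a-3p and miR-200b-3p differ at a single base (C4U, with positions counted from 1 at the 5′ end). Sequences run 5′ to 3′.
miR-200b-3p, chr1:1167160-1167181, plus strand: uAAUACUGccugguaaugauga
miR-429, chr1:1169055-1169076, plus strand: uAAUACUGucugguaaaaccgu
miR-200c-3p, chr12:6963742-6963764, plus strand: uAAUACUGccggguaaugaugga
miR-200a-3p, chr1:1167916-1167937, plus strand: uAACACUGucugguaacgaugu
miR-141-3p, chr12:6964155-6964176, plus strand: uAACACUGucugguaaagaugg
The 5p arms have other seeds, shown in the same way, of which miR-200a-5p and miR-200b-5p share 1.
miR-200b-5p, chr1:1167124-1167145, plus strand: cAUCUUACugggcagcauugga
miR-200a-5p, chr1:1167878-1167899, plus strand: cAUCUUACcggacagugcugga
miR-200c-5p, chr12:6963703-6963724, plus strand: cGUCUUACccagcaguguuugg

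The hairpins MIR200B, MIR200A and MIR429 lie within 1984 bases of chromosome 1, and MIR200C and MIR141 within 493 bases of chromosome 12, inside the annotated long non-coding RNA gene MIR200CHG. The 3p members resemble each other closely. Over 22 bases, counted in the same way, miR-200b-3p and miR-200c-3p differ by 2 substitutions (U11G and A22G), and miR-200a-3p and miR-141-3p also by 2 (C17A and U22G). No miRNA outside the family came nearer than 7 substitutions to a member when aligned from the first base, among those named on the arrays and held in RefSeq. How far the probes distinguish members that differ at so few bases was not tested, and probe sequences were not used here. Among the matched names, miR-550a-3p alone carried a member's seed, that of miR-200c-5p.

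The 2 groups of arrays differed in overall brightness. Blank spots, which carry no probe, read 68.0 ± 9.88 intensity units on lenvatinib arrays against 33.3 ± 1.51 on control arrays (SD, n = 5 each), and the 868 probes detected on all 10 arrays had a median unscaled lenvatinib over control ratio of 2.51. Treatment and any difference in session or scan cannot be told apart, and every change below is relative to the bulk of the miRNAs. A probe counted as detected where its raw brightness exceeded the blank mean of its array by more than 2 blank SDs, a limit of 5.12 ± 1.03 units above blank on lenvatinib arrays and 1.89 ± 0.22 on control arrays (SD, n = 5 each). The spots named Negative Control 3 stood above blank on every array, by 7.21 to 9.93 units on lenvatinib arrays and 3.20 to 4.03 on control arrays, and serve below as a second measure of background. MiR-122-5p, the defining hepatocyte miRNA, was detected on all 10 arrays, at 7246 to 9778 units above blank on lenvatinib arrays and 2815 to 3424 on control arrays. Of the 3 hepatocyte markers, 2 rose and 1 fell after normalization, beside 12.1% of all tested probes called higher and 9.36% lower. MiR-122-5p had a log2 change of 0.35 ± 0.10 (SE) with an adjusted p of 0.0314, passing in 15 of 29 alternatives and lying above 0 in 26, and miR-192-5p is given with the epithelial list below. MiR-885-5p, another miRNA enriched in liver, fell by a change of -1.22 ± 0.12 (SE, adjusted p = 0.000121), passing in 28 of 29 alternatives, and was above 0 with no scaling, at 0.28. The part of these shifts in the results below was not tested. Of the erythroid, leukocyte, and endothelial and stromal marker miRNAs, 0 of 2, 0 of 2 and 0 of 5 tested passed in either direction. With so few probes tested, 0 calls lie near the shares over all tested probes and say nothing about such cells.

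After quantile normalization, 2 of the 6 tested members rose with lenvatinib and 0 fell, in a comparison where 12.1% of 1346 tested probes were called higher and 9.36% lower (limma, adjusted p under 0.05). The risers were miR-200b-3p, at 1.89-fold, and miR-200a-3p, at 1.47-fold, neighbours in the chromosome 1 cluster. In these bulk extracts, more cells with a miRNA and more of it per cell cannot be told apart. The other 4 tested members had changes of 0.30 to 0.48 on the log2 scale and did not pass. The median change of the 6 was 0.44, beside -0.03 over all tested probes. The 3 remaining members were not tested. MiR-141-3p and miR-141-5p were detected on no array, and miR-200a-5p on 2 arrays of each group, below the 5 arrays that testing required.

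**Figure D1:**
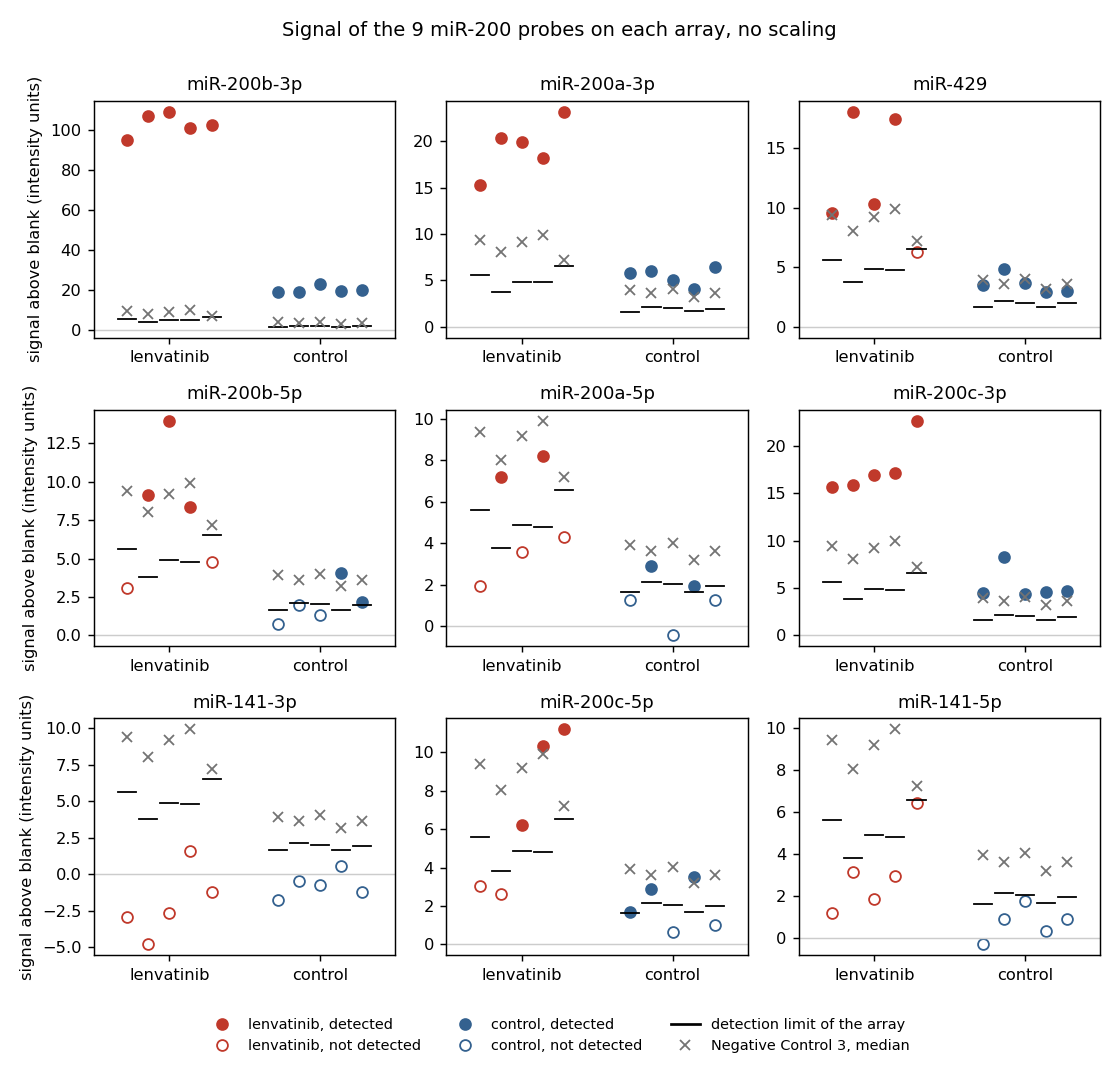
Signal of each of the 9 miR-200 probes above the blank mean of its array, in unscaled intensity units, with lenvatinib arrays left of control arrays and replicates 1 to 5 from left to right within a group. Filled points were detected, open points were not, bars mark the detection limit of each array and crosses the median of its Negative Control 3 spots; miR-200b-3p lies far above both marks on all 10 arrays, and both miR-141 probes lie below the limit on all 10.

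MiR-200b-3p was the member measured best. In the order of replicates 1 to 5, its signal above blank was 95.4, 107.0, 109.3, 101.2 and 102.6 units on lenvatinib arrays, against 19.2, 18.8, 23.2, 19.4 and 20.0 units on control arrays. On this unscaled scale, where the lenvatinib arrays were brighter as a whole, the groups did not overlap. The lowest value stood 31.3 blank SDs above blank on lenvatinib arrays and 17.6 on control arrays. The unscaled ratio of the group means was 5.12, beside the median of 2.51 over probes detected on all arrays and 2.37 for Negative Control 3. After quantile normalization it averaged 5.94 ± 0.07 on the log2 scale on lenvatinib arrays and 5.02 ± 0.14 on control arrays (SD, n = 5 each). The change of 0.92 ± 0.12 (SE, 95% confidence interval 0.66 to 1.18) had an adjusted p of 0.000273 and was seen in 5 of 5 lenvatinib arrays, each above every control array. It passed in all 30 alternative settings, at 0.41 to 2.36, the extremes coming from normexp background correction, which compresses dim signals, and from no scaling, where all tested probes had a median of 1.30.

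MiR-200a-3p, which carries the other seed and is known to repress KEAP1 as well as ZEB1 and ZEB2, was far dimmer. Its signal above blank was 15.3, 20.4, 19.9, 18.2 and 23.2 units on lenvatinib arrays, against 5.78, 6.04, 5.10, 4.05 and 6.41 units on control arrays. Every lenvatinib array was again above every control array, and so were the normalized values. Of the 6 tested members, 2 had groups that did not overlap with lenvatinib higher and 0 with lenvatinib lower, beside 11.1% and 8.84% of all tested probes. The change was 0.56 ± 0.18 on the log2 scale (SE, 95% confidence interval 0.16 to 0.96), with an adjusted p of 0.0488. That call stood close to its threshold. It held in 12 of 30 alternatives and was lost after scaling to the median (0.48, adjusted p = 0.0706) or to the 75th percentile (0.31, adjusted p = 0.192), and on leaving out any 1 array other than control replicate 5 (0.40 to 0.61, adjusted p from 0.0595 to 0.100, against 0.64 and 0.0419 without control replicate 5). The size also depended on background, at 0.09 with normexp (adjusted p = 0.0462) and 0.84 with Negative Control 3 as the background (adjusted p = 0.00976). The signal exceeded that of Negative Control 3 by 5.94 to 16.0 units on lenvatinib arrays but by only 0.86 to 2.77 on control arrays.

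MiR-429, the third hairpin of the chromosome 1 cluster, has the seed of miR-200b-3p. It read 9.53, 18.0, 10.3, 17.4 and 6.26 units above blank on lenvatinib arrays, the last value being under the detection limit, against 3.50, 4.81, 3.67, 2.91 and 3.01 units on control arrays. The unscaled groups did not overlap, but with no scaling 1287 of 1346 tested probes were called higher, so that says nothing about miR-429 in particular. After normalization 3 of 5 lenvatinib arrays lay above every control array and replicate 5 below all of them. That normalized value of lenvatinib replicate 5 was filled in for an undetected probe and was not a measurement. The log2 change of 0.40 ± 0.33 did not pass (SE, 95% confidence interval -0.33 to 1.13, adjusted p = 0.455). Without lenvatinib replicate 5 it was 0.70 (adjusted p = 0.0543), and without lenvatinib replicate 2 it was 0.22 (adjusted p = 0.707). The change was 0.67 with undetected values left missing (limma adjusted p = 0.131) and 0.24 with them at a lower floor (limma adjusted p = 0.797). The miR-429 signal exceeded that of Negative Control 3 on 4 lenvatinib arrays and on 1 control array, so the control level was at background by that measure.

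**Figure D2:**
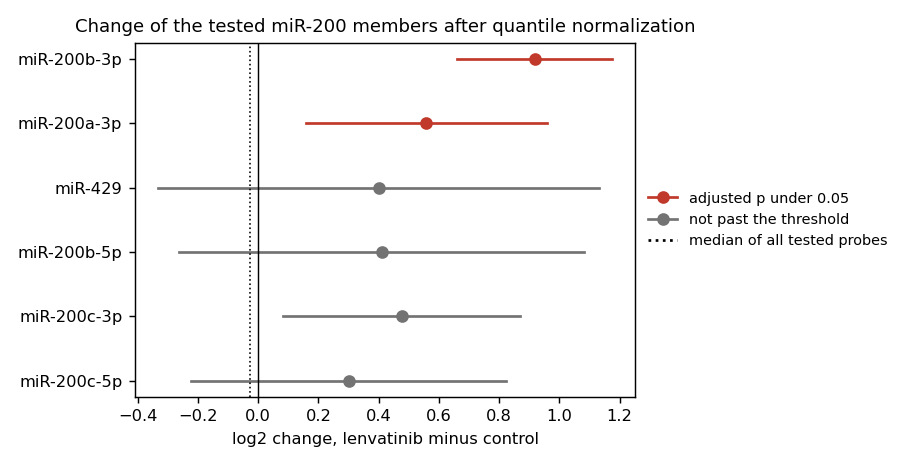
Log2 change of the 6 tested miR-200 members, lenvatinib minus control, after quantile normalization, with 95% confidence intervals from limma (5 arrays in each group). All 6 points lie right of 0, 2 of them past an adjusted p of 0.05, and the dotted line marks the median of all tested probes at -0.03.

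In the chromosome 12 cluster only the probes named for the 200c hairpin were detected. The miR-200c-3p sequence differs by 2 substitutions from the brighter miR-200b-3p, and whether the probes share signal was not tested. MiR-200c-3p, which shares its seed with miR-200b-3p, read 15.7, 15.9, 16.9, 17.1 and 22.6 units above blank on lenvatinib arrays, against 4.50, 8.22, 4.38, 4.61 and 4.66 units on control arrays. The unscaled groups did not overlap, which the greater brightness of the lenvatinib arrays as a whole makes common and which says nothing about this member in particular. After normalization, control replicate 2, at 3.68 on the log2 scale, lay above all 5 lenvatinib arrays, which spanned 3.43 to 3.58, while the other control arrays spanned 2.65 to 2.98. The change of 0.48 ± 0.18 on the log2 scale did not pass (SE, 95% confidence interval 0.08 to 0.87, adjusted p = 0.0803). Without control replicate 2 it was 0.65 and passed (adjusted p = 0.00534), and it passed in 5 of 30 alternatives in all. Its excess over Negative Control 3 was 6.30 to 15.4 units on lenvatinib arrays and 0.35 to 4.60 on control arrays.

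MiR-141-3p, the chromosome 12 member with the seed of miR-200a-3p, was at -4.78 to 1.61 units relative to blank on lenvatinib arrays and at -1.76 to 0.59 on control arrays. Its mean lay below the blank mean in both groups, at -1.98 ± 2.37 units on lenvatinib arrays and -0.70 ± 0.88 on control arrays (SD, n = 5 each). MiR-141-5p stood at 1.20 to 6.43 units above blank on lenvatinib arrays and at -0.29 to 1.76 relative to blank on control arrays, under the limit of its own array each time. A level of miR-141 was therefore not detectable by these probes, and no change can be stated.

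Of the 5p arms, miR-200b-5p was detected on 3 lenvatinib and 2 control arrays, and miR-200c-5p on 3 of each. MiR-200b-5p changed by 0.41 ± 0.31 on the log2 scale (SE, 95% confidence interval -0.26 to 1.08, adjusted p = 0.396) and miR-200c-5p by 0.30 ± 0.24 (95% confidence interval -0.22 to 0.82, adjusted p = 0.429). The groups overlapped for each arm, and neither arm passed in more than 1 of 28 alternatives, the one with no scaling. MiR-200a-5p had its 2 detected lenvatinib values at 7.20 and 8.21 units above blank and its 2 detected control values at 2.92 and 1.92, and it exceeded Negative Control 3 on no array. With Negative Control 3 as the background, the changes of miR-200b-5p and miR-200c-5p were 0. Over all 9 probes, 27 of 45 spots were detected on lenvatinib arrays and 27 of 45 on control arrays.

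All 6 tested members had a change above 0, as did 47.2% of all tested probes, and their unscaled ratios ran from 3.35 to 5.12. For miR-200b-5p, miR-200c-5p and miR-429 these ratios include arrays where the probe was not detected. Background alone can also read higher on lenvatinib arrays. MiR-141-5p, detected on no array, averaged 3.11 units above blank there and 0.72 on control arrays. The sign of the 6 changes held with scaling to the median, the 75th percentile or the spike controls, and with cyclic loess. It also held with the authors' own normalizations where these held the member. With no scaling the sign was above 0 as well, but there 1287 of 1346 tested probes were called higher. That setting therefore says nothing about these members in particular. The authors' deposited series table held 3 of the members, with changes of 0.84 for miR-200b-3p (adjusted p = 7.26e-05), 0.58 for miR-200a-3p (adjusted p = 0.0222) and 0.49 for miR-200c-3p (adjusted p = 0.0466) when fitted in the same way.

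**Figure D3:**
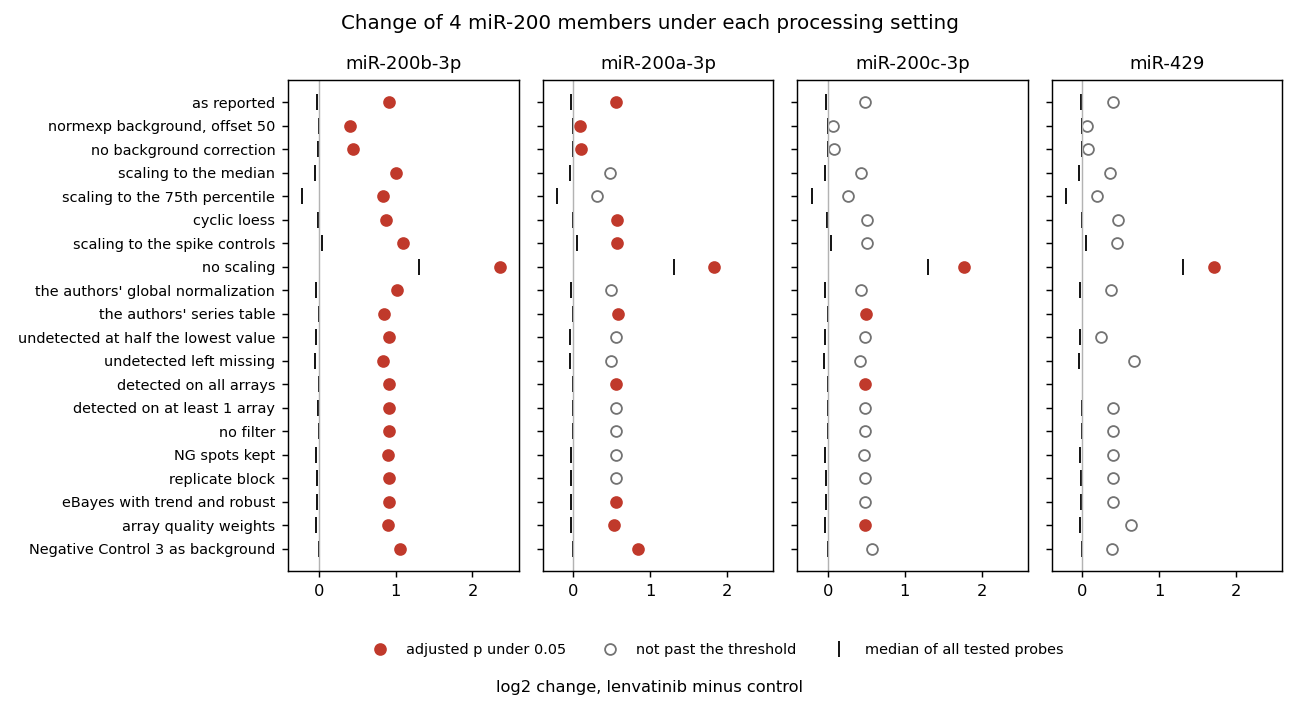
Log2 change of miR-200b-3p, miR-200a-3p, miR-200c-3p and miR-429, lenvatinib minus control, under the reported processing and each alternative limma fit that keeps all 10 arrays. The exact permutation test is not drawn. Filled points passed an adjusted p of 0.05 and vertical ticks mark the median of all tested probes in that setting; miR-200b-3p is filled in every row, and with no scaling the tick moves to 1.30.

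Whether members changed to different extents was tested with the difference between 2 probes on the same array, over the 6 pairs of the 4 tested 3p-type members (exact two-sided permutation tests over all splits of the arrays, adjusted over the 6 pairs). MiR-200b-3p and miR-200c-3p, which share a seed but not a cluster, differed. Their log2 difference was 2.45 on lenvatinib arrays and 2.01 on control arrays, a difference in change of 0.44 ± 0.17 (SE), and the groups did not overlap (exact permutation p = 0.00794, the smallest that 5 against 5 can give, adjusted p = 0.0476). They were barely apart, with the lowest lenvatinib value at 2.377 (replicate 5) and the highest control value at 2.375 (replicate 3). Both the separation and the call rest on that margin. With median scaling, which cancels within an array, the difference in change was 0.58 and did not pass (exact permutation adjusted p = 0.0714). With normexp it was 0.34 and passed (adjusted p = 0.0159). Leaving out 1 array gave 0.28 (without control replicate 2) to 0.53 (without control replicate 3), and the pair passed without control replicate 3, 4 or 5 but not without any of the other arrays. MiR-200a-3p and miR-200b-3p, neighbours with different seeds, differed in change by -0.36 ± 0.16 (SE, exact permutation adjusted p = 0.214), which passed with normexp (-0.32, adjusted p = 0.0159) and without control replicate 4 (-0.49, adjusted p = 0.0238). MiR-200b-3p and miR-429 differed in change by 0.52 ± 0.38 (SE, exact permutation adjusted p = 0.365), which also passed with normexp (0.35, adjusted p = 0.0159). Normexp compresses dim signals, leaving changes of 0.09, 0.07 and 0.06 for miR-200a-3p, miR-200c-3p and miR-429, beside 0.41 for miR-200b-3p. In the 3 pairs that passed with normexp, unequal change and unequal brightness therefore cannot be told apart. The comparisons of miR-200a-3p with miR-200c-3p and with miR-429, and of miR-200c-3p with miR-429, gave 0.08 ± 0.19, 0.16 ± 0.36 and 0.08 ± 0.40 (SE), each smaller than its error.

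**Figure D4:**
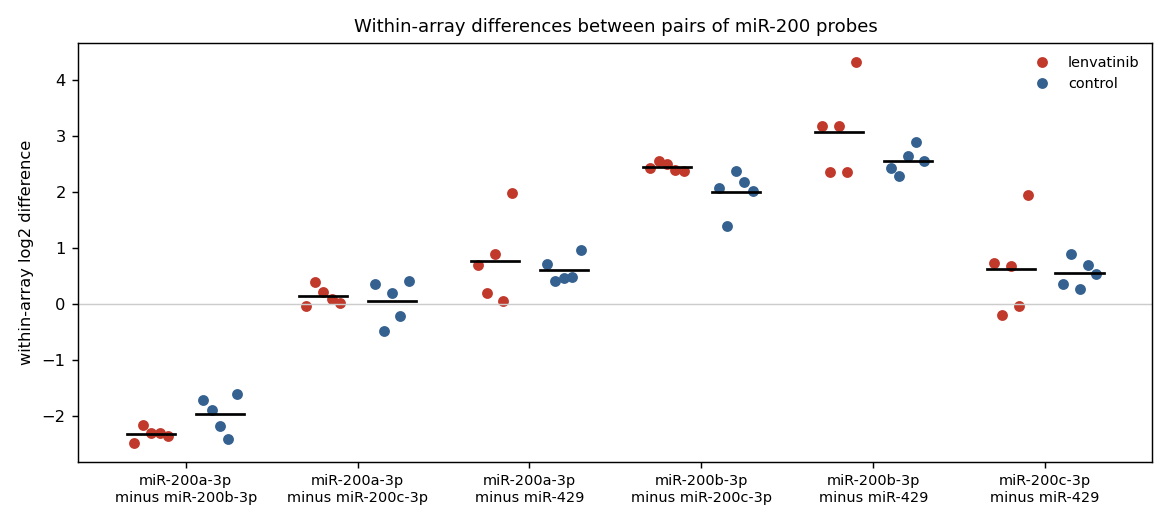
Within-array log2 difference between each pair of the 4 tested 3p-type miR-200 probes after quantile normalization, with lenvatinib arrays left of control arrays in each pair, points for arrays and bars for group means. For miR-200b-3p minus miR-200c-3p the lenvatinib points lie above the control points, but the closest 2 nearly touch (2.377 against 2.375). The lenvatinib points spread most in the pairs with miR-429.

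Likeness to miR-200b-3p was described by Pearson's r of deviations from the group means over the 10 arrays, among 856 other probes detected on all of them. Arrays share labelling and brightness, so a high r describes these arrays only. The 5 probes most like it were miR-6766-3p (r = 0.87), miR-28-3p (0.84), miR-4686 (0.83), miR-6743-3p (0.82) and miR-6830-5p (0.79), and none of them passed the comparison with control, their adjusted p running from 0.0696 to 0.945. Family members were less alike, with miR-200a-3p ranked 62 (r = 0.53) and miR-200c-3p ranked 155 (r = 0.34).

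MiR-550a-3p, with the seed of miR-200c-5p but otherwise a different sequence, was detected on all 10 arrays, at 12.6 to 38.5 units above blank on lenvatinib arrays and 5.83 to 10.3 on control arrays. Its log2 change of -0.08 ± 0.23 did not pass (SE, adjusted p = 0.859).

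Other miRNAs tied to the epithelial state were followed as a list of 11, of which 9 were tested, 3 rose and 0 fell, beside 12.1% higher and 9.36% lower over all tested probes, with a median change of 0.25 beside -0.03. The risers were miR-215-5p at 0.96 ± 0.14 on the log2 scale (SE, adjusted p = 0.000509), miR-194-5p at 0.59 ± 0.13 (adjusted p = 0.00692) and miR-192-5p at 0.45 ± 0.12 (adjusted p = 0.0216). They come from 2 related miRNA clusters active in hepatocytes and gut epithelium, and miR-192-5p and miR-215-5p share a seed. Whether the probes of these 2 share signal was not tested. MiR-192-5p was the brighter, at 2349 to 3020 units above blank on lenvatinib arrays against 605 to 953 for miR-215-5p, and 737 to 986 against 151 to 181 on control arrays. MiR-215-5p passed in 29 of 29 alternatives, miR-194-5p in 25 and miR-192-5p in 21. Their lowest changes over these alternatives were 0.82, 0.13 and 0.04, in that order. MiR-205-5p, which represses ZEB1 and ZEB2 through sites of its own, was as dim as most of the family, at 6.53 to 21.0 units above blank on lenvatinib arrays and 1.84 to 3.17 on control arrays. All its control values lay under those of Negative Control 3 (3.20 to 4.03 units), and it was detected on 4 of 5 control arrays. Its change of 0.82 ± 0.31 (SE, 95% confidence interval 0.15 to 1.49) did not pass (adjusted p = 0.0795). The remaining tested members also did not pass: miR-34a-5p (0.20) and miR-30a-5p (-0.18), both known to repress SNAI1, miR-375 (0.25), miR-148a-3p (-0.49) and miR-101-3p (-0.42), which represses EZH2. MiR-101-3p was detected on 2 lenvatinib and 5 control arrays, so its change rests largely on filled-in values. Over the alternatives it ran from -0.94 to 1.00. MiR-148a-3p had an adjusted p of 0.0687 and met the threshold, in either direction, in 9 of 29 alternatives.

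Of 11 miRNAs tied to the mesenchymal state, 9 were tested, 3 rose and 2 fell, beside the same 12.1% and 9.36% over all tested probes, with a median change of 0.15. MiR-21-5p, which represses PDCD4, fell by a change of -0.59 ± 0.15 (SE, adjusted p = 0.0165), and miR-221-3p by -0.44 ± 0.12 (adjusted p = 0.0230). With no scaling both were above 0, at 0.37 and 0.93. The risers were miR-181a-5p at 0.57 ± 0.16 (adjusted p = 0.0288) and the closely similar pair miR-103a-3p at 0.47 ± 0.11 (adjusted p = 0.0108) and miR-107 at 0.41 ± 0.11 (adjusted p = 0.0206), which repress DICER1 and may share signal. After scaling to the 75th percentile, miR-103a-3p and miR-107 were at -0.08 and -0.09, where the median of all tested probes was -0.21. MiR-21-5p met the threshold, in either direction, in 28 of 29 alternatives and miR-221-3p in 21. Among the risers, miR-103a-3p did so in 24, miR-181a-5p in 22 and miR-107 in 19. The tested members that did not pass were miR-222-3p (-0.35, adjusted p = 0.0609), which met the threshold in either direction in 15 of 29 alternatives, miR-9-5p (0.15), miR-10b-5p (-0.14) and miR-373-3p (0.26). Over the 18 tested members of both lists, the calls were 6 higher and 2 lower as reported, 2 higher and 4 lower with the 75th percentile, 2 higher and 3 lower with cyclic loess, and 17 higher and 0 lower with no scaling.

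**Figure D5:**
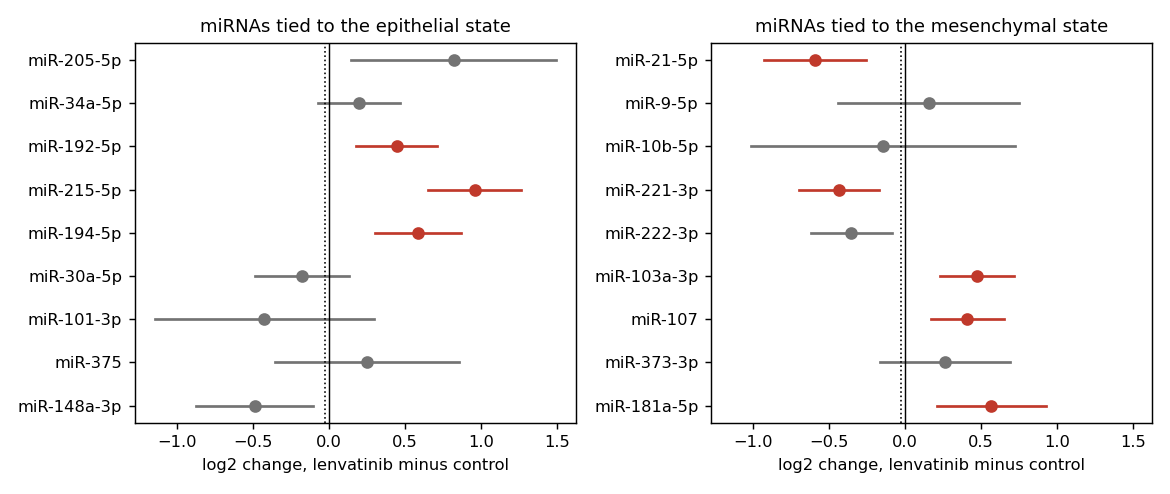
Log2 change, lenvatinib minus control, of the tested members of the epithelial list (left) and the mesenchymal list (right), with 95% confidence intervals from limma, red where the adjusted p was under 0.05 and grey otherwise. In the epithelial list 3 of 9 are red, all right of 0, and in the mesenchymal list 3 red points lie right of 0 and 2 left of it; the dotted line is the median of all tested probes.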

How the data were processed

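Each sample's RNA carried a single dye, Cy5, on its own 3D-Gene miRNA array, per the labels' protocols; scanner and software: not given in the sources used here. Per the file headers, the deposited linear intensity comes raw, after background subtraction and after global normalization. The subtraction equalled raw brightness minus the blank mean trimmed by 5% at each end, empty unless raw brightness exceeded it by 2 blank SDs, which matched 25650 of 25650 cells. The authors' series table holds linear intensity for 803 probes with near-identical column distributions.

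Background-subtracted values were used, a probe not detected took the lowest value detected on that array, and 13 spots marked NG were left out, none of them a member. Quantile normalization followed on the log2 scale. The 1346 probes detected on at least 5 of 10 arrays were tested with limma 3.58.1 in R 4.3.3 (two-sided, no block), with Benjamini-Hochberg adjustment over all of them and a threshold of 0.05. The procedure was tested on simulated data drawn without a brightness difference between the groups and without filled-in undetected values. How it handles those 2 features was therefore not tested. Sequences were matched by name (2281 of 2588 array names). Named miRNAs were all members, other array miRNAs with a member's seed, list members that passed with miR-205-5p, and the 5 most correlated with miR-200b-3p; the other tested list members and the hepatocyte markers were added after their values were seen. The members and lists were chosen with earlier results of these data known. Alternatives covered background, scaling, undetected values, filters, NG spots, a replicate block, variance model and each array left out; Negative Control 3 as background was added after seeing the data.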

Additional observations from a re-analysis of the deposited data

Results flagged for a closer look

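On 3 of 24 sets of 5 arrays examined (6 tested members, both groups, on the unscaled and the normalized scale), 1 array lay far from the other 4 relative to their range, all on the unscaled scale; chance gives about 1 in 20 such sets. MiR-200c-3p read 22.6 units above blank on lenvatinib replicate 5, against 15.7 to 17.1 on the other lenvatinib arrays; that array also had the brightest blanks of all 10, at 85.5 units. MiR-200c-3p read 8.22 units on control replicate 2, against 4.38 to 4.66 on the other control arrays, and its change passed when that array was left out. MiR-200b-3p read 23.2 units on control replicate 3, against 18.8 to 20.0 on the other control arrays, and its change without that array also passed.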

How the results depend on the processing

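The 2 groups differ in brightness on every array, 5 of the 6 tested members, all but miR-200b-3p, lie within 4.60 units of Negative Control 3 on control arrays, and 5 arrays a group limit precision. MiR-200b-3p kept its direction and its call in all 30 alternatives. Members called higher, 2 as reported, numbered 1 with the 75th percentile or the median as the scale, the authors' global normalization, undetected values at a lower floor or left missing, probes detected on at least 1 array, no filter, NG spots kept or a replicate block, 3 with the authors' series table, only probes detected on all arrays or array quality weights, 6 with no scaling, and 1 to 2 with 1 array left out; members called lower numbered 0 throughout. Where the count was 1, the lost call was that of miR-200a-3p; without control replicate 2 that call was also lost and miR-200c-3p passed. The cause was not tested. List members called, 8 as reported, numbered 4 with the median, 6 with the 75th percentile (2 higher, 4 lower, against 6 and 2 as reported), 5 with cyclic loess (2 higher, 3 lower), the authors' global normalization or undetected values left missing, 17 with no scaling, and 5 to 10 with 1 array left out. Pairs that passed, 1 as reported, numbered 3 with normexp, 0 with the median and 0 to 2 with 1 array left out. Probes called, 289 as reported, numbered 182 with undetected values left missing, 1289 with no scaling (1287 higher, 2 lower) and 225 to 333 with 1 array left out. The split was 163 higher and 126 lower as reported, 109 and 240 with the 75th percentile, which moved the median of all tested probes to -0.21, and 189 and 86 with the spike controls. With the replicate block 257 probes and 1 member were called, and miR-200a-3p had an adjusted p of 0.0593. Same-numbered arrays had correlations of deviations of 0.11, 0.12, 0.14, 0.14 and 0.00085, not all over 0.1, so the numbers were not taken to pair the arrays; that 3 of 5 lenvatinib arrays correlated best with the control array of their number is a hint of pairing from the data, not the design.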
